A study of Drosophila melanogaster with 24 samples.

Results

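Gene expression in fly heads 2 h after lights on (zeitgeber time 2, ZT2) was compared with that 2 h before lights on (ZT22). Of the 24 poly(A) RNA libraries of the series, 8 belong to these times, 4 at ZT2 and 4 at ZT22, and they were chosen by the times in their titles. The groups were heads of the cwo5073 mutant at ZT2 (2 libraries), the w1118 strain at ZT2 (2 libraries), the mutant at ZT22 (2 libraries) and w1118 at ZT22 (2 libraries). The w1118 strain is named as the wild-type control of the mutant. All flies were reared at 25 °C in cycles of 12 h light and 12 h dark, and heads were taken on day 4, after 3 days of these cycles. Titles name 6 times and were followed, although the treatment text gives only ZT2 and ZT14. The remaining 16 libraries, from ZT6, ZT10, ZT14 and ZT18, entered only where a fit or a day course is said to use them. Neither sex nor age of the flies is stated. The labels leave unsaid if replicates are separate cultures, so p-values measure the spread between these libraries, which may be technical.

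In the fly clock, the proteins CLOCK and CYCLE drive transcription of per, tim, vri, Pdp1 and cwo, and the products of these genes feed back on that transcription. The protein TIM is degraded when light activates the photoreceptor Cryptochrome, and this resets the loop each dawn. The gene cwo (clockwork orange) encodes a repressor that competes for the same E-box sites. Between ZT22 and ZT2 the flies passed from dark to light and the clock ran on by 4 h, and in a single light-dark day these cannot be told apart. In whole heads, fewer cells of a type and less RNA per cell cannot be told apart either.

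The labels were first checked against cwo, which had 273 and 265 CPM in mutant heads and 55.5 and 57.9 CPM in wild-type heads at ZT2, against 419.5 and 388 CPM in mutant heads and 60.5 and 51.1 CPM in wild-type heads at ZT22. The 4 mutant libraries lay above the 4 wild-type libraries, so the level of cwo divided the libraries as their genotype labels do. Markers of the head were present: genes for opsins and chromophore synthesis together took 25100 to 50800 CPM (counts scaled to a common library total) at ZT2, against 36900 to 48000 CPM at ZT22. The 14 listed genes of male accessory gland and testis together stayed between 0.112 and 0.791 CPM in the 8 libraries. Summed levels, here and below, are on raw library totals, unlike the CPM of single genes.

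The 8 libraries held 11674473 to 18805525 counts. Wild-type ZT2 replicate 2 and wild-type ZT22 replicate 1 stood apart. Their long transcripts were low relative to short ones: the median log2 deviation of 1524 genes of at least 4000 nt minus that of 1184 genes under 1000 nt was -1.41 and -1.17 in these libraries, against -0.519 to 0.625 in the other 6. Wild-type ZT2 replicate 2 had a median Spearman correlation with the other libraries of 0.784, wild-type ZT22 replicate 1 of 0.902, and the other 6 of 0.947 to 0.966. The wild-type step therefore sets 1 such library against another, and the mutant step holds neither. The mutant ZT22 replicates also differed from each other, at 0.625 and -0.383, against 0.415 and 0.299 at mutant ZT2.

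Very few genes passed the test between ZT2 and ZT22. With genotype as a block, edgeR's quasi-likelihood test on the 8 libraries called 2 of 11095 tested genes at an adjusted p under 0.05, or 0.018%: Ipod was higher and CG14221 was lower at ZT2 (0.00901% in each direction). At an unadjusted p under 0.05 there were 381 genes, or 3.43%. DESeq2 on the same libraries called 55 genes (0.496%), of which 40 were higher and 15 lower. A fit of all 24 libraries with 12 groups of genotype and time, which takes the spread from every group, called 59 genes (0.532%), with 42 higher (0.379%) and 17 lower (0.153%), and is called the 12-group fit here. It shared 40 genes with DESeq2, which is 67.8% of its own calls and 72.7% of those of DESeq2. With the replicate number as a block the 8-library test called 0 genes, and without both wild-type libraries of low long-gene coverage it also called 0.

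Taken by themselves, the 12 mutant libraries gave 2 calls for the mutant step (0.018%), Ipod higher and Hsp22 lower at ZT2 (0.00901% each way), with 405 genes (3.65%) at an unadjusted p under 0.05. Mutant libraries with the same replicate number deviated together, most weakly for ZT2 with ZT22 (correlation of 0.143). With the number as a block the mutant step had 10 calls, 4 higher and 6 lower. DESeq2 gave 43. The mutant step had 5 calls without mutant ZT22 replicate 1, and 0 without mutant ZT2 replicate 1 or mutant ZT2 replicate 2. The wild-type step had 0 calls in edgeR's quasi-likelihood test on the 12 wild-type libraries, 838 genes (7.55%) at an unadjusted p under 0.05 and 57 calls in DESeq2. The difference between the genotypes' steps had 0 calls over all 24 libraries, 396 genes (3.57%) at an unadjusted p under 0.05 and 3 calls in DESeq2. The count for the wild-type step was 3487 without wild-type ZT2 replicate 1, where ZT2 rests on the library of lowest long-gene coverage alone, and 1 to 6 without each other wild-type library of these times. Likewise, the difference had 2614 calls without wild-type ZT2 replicate 1 and 0 to 6 without each other library. Over both genotypes there was 1 call without wild-type ZT2 replicate 2 or mutant ZT2 replicate 1, and 0 without each other library.

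Ipod, whose product is known as a binding partner of the methyltransferase Dnmt2, had 5.96 and 8.59 CPM in mutant heads and 6.45 and 6.33 CPM in wild-type heads at ZT2, against 1.16 and 0.986 CPM in mutant heads and 0.721 and 0.796 CPM in wild-type heads at ZT22. All 4 ZT2 libraries lay above all 4 ZT22 libraries, and the genotypes overlapped at ZT2. Ipod rose by 2.89 ± 0.23 on the log2 scale over both genotypes (SE, edgeR's quasi-likelihood test, adjusted p = 0.0156). In the mutant it rose by 2.74 ± 0.27 (adjusted p = 0.0277), and the wild-type step was 3.08 ± 0.40 (adjusted p = 0.0746). The call over both genotypes held in 18 of 28 alternative settings, with adjusted p-values of 1.32e-16 to 0.569. Leaving out single libraries moved its adjusted p between 0.0417 and 0.186, and the call held only without wild-type ZT2 replicate 2 (0.0417) or mutant ZT2 replicate 1 (0.0463). In the mutant step it was lost without each of the 4 mutant libraries (0.0788 to 0.129). The gene lies on chromosome X from 10231002 to 10233080 on the minus strand (dm6), is scarce, and was named because it was called, since its average level is under the minimum of the naming rule.

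Across the day, Ipod was high for a short time only. At ZT6 it had 2.27 and 2.23 CPM in the mutant and 5.36 and 7.92 CPM in wild type. At ZT10 it had 1.33 and 1.47 CPM in the mutant and 1.42 and 1.45 CPM in wild type. The mutant mean was highest at ZT2, and the wild-type means at ZT2 and ZT6 were close to each other.

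CG14221 had 6.27 and 7.21 CPM in mutant heads and 5.54 and 4.64 CPM in wild-type heads at ZT2, against 17.4 and 19.1 CPM in mutant heads and 14.7 and 18 CPM in wild-type heads at ZT22. The 4 ZT2 libraries lay below the 4 ZT22 libraries without overlap. CG14221 fell by 1.57 ± 0.16 over both genotypes on the log2 scale (SE, edgeR's quasi-likelihood test, adjusted p = 0.0462). The mutant step was -1.46 ± 0.24 (adjusted p = 0.165) and the wild-type step -1.66 ± 0.26 (adjusted p = 0.164). Over the alternatives the call held in 15 of 28, with adjusted p-values of 4.67e-13 to 0.493, and it was lost without each single library in turn (0.0545 to 0.303). Its levels were lower at the light than at the dark times, with 6.84 and 11.3 CPM in the mutant and 6.32 and 8.81 CPM in wild type at ZT10, and 18.7 and 23.6 CPM in the mutant and 20.7 and 30.6 CPM in wild type at ZT14. The gene lies on chromosome X from 19618819 to 19621245 (minus strand).

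Hsp22, a small heat shock protein of mitochondria, had 10.3 and 9.84 CPM in mutant heads and 23.3 and 37.9 CPM in wild-type heads at ZT2, against 24.6 and 23.7 CPM in mutant heads and 90.9 and 52.2 CPM in wild-type heads at ZT22. Within each genotype the ZT2 libraries lay below the ZT22 libraries, and at each time wild type was above the mutant, so that the times overlapped across genotypes. Hsp22 fell by 1.28 ± 0.13 in the mutant (SE, edgeR's quasi-likelihood test, adjusted p = 0.0277). The wild-type step was -1.22 ± 0.77 (adjusted p = 0.655) and the step over both genotypes -1.26 ± 0.23 (adjusted p = 0.228). The mutant call held in 5 of 12 alternatives, with adjusted p-values of 2.65e-09 to 1, and was lost without each of the 4 mutant libraries (0.0942 to 0.206). Its gene model overlaps Hsp67Bb on the same strand, so reads could be divided between them. Of the 24 heat shock and chaperone genes tested, Hsp22 alone passed in the mutant step, and none passed over both genotypes. Of all tested genes, 0.018% passed in each of these tests.

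**Figure D1:**
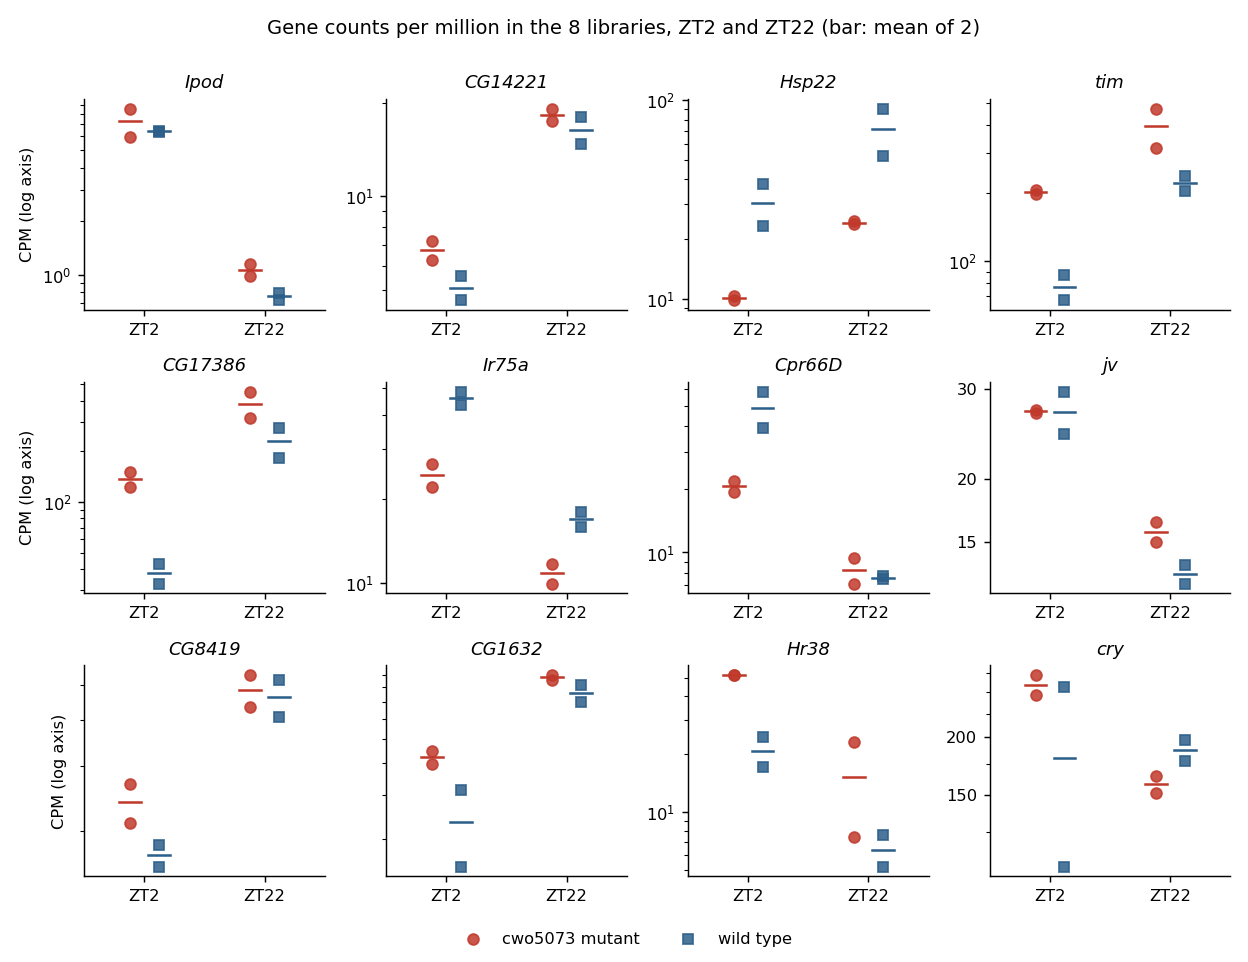
CPM (log axis) of 12 genes in the 8 libraries, with ZT2 left of ZT22 in each panel, circles for the mutant, squares for wild type and a bar for the mean of 2 libraries. Ipod, Ir75a, Cpr66D and jv were higher in all 4 ZT2 libraries than in any ZT22 library, and CG14221, CG17386, CG8419 and CG1632 were lower in all 4.

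Of the clock genes, tim had the largest difference. It had 206 and 198 CPM in mutant heads and 86.8 and 67.3 CPM in wild-type heads at ZT2, against 473 and 317 CPM in mutant heads and 204 and 239 CPM in wild-type heads at ZT22. Within each genotype the ZT2 libraries lay below the ZT22 libraries, and the mutant ZT2 libraries overlapped the wild-type ZT22 libraries. The step over both genotypes was -1.25 ± 0.21 and missed the threshold in the 8 libraries (SE, edgeR's quasi-likelihood test, adjusted p = 0.228). In the 12-group fit tim fell by 1.24 ± 0.18 (edgeR's quasi-likelihood test, adjusted p = 0.00268), and it passed in 13 of 28 alternatives (1.34e-05 to 0.882). The mutant step was -0.99 ± 0.18 and the wild-type step -1.50 ± 0.31. In the mutant, tim was at 333 and 327 CPM at ZT6 and 1160.2 and 1127 CPM at ZT14, so that ZT2 was the lowest time and ZT22 stood on the falling side. Wild type had 243 and 248 CPM at ZT6 and 1128 and 1461 CPM at ZT14.

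All 19 clock genes listed were tested, and 0 passed over both genotypes or in the mutant step in edgeR's quasi-likelihood test, against 0.018% of all genes. In the 12-group fit tim alone passed, against 0.532% of all tested genes. At an unadjusted p under 0.05 over both genotypes there was again 1, tim, against 3.43% of all tested genes. The median step of the 19 genes was 0.17 on the log2 scale over both genotypes, -0.08 in the mutant and 0.23 in wild type, against medians of 0.00, -0.01 and 0.02 over all tested genes.

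The partner of tim in the repressor complex, per, had 47.1 and 58.2 CPM in mutant heads and 38.5 and 55.4 CPM in wild-type heads at ZT2, against 66.4 and 43.8 CPM in mutant heads and 36.5 and 32.9 CPM in wild-type heads at ZT22. In the mutant the times overlapped, and in wild type both ZT2 libraries were above both ZT22 libraries. Its step was 0.17 ± 0.21 over both genotypes (edgeR's quasi-likelihood test, adjusted p = 0.992). The mutated gene cwo, with the values above, differed by -0.29 ± 0.19 (adjusted p = 0.992). Its mutant libraries were lower at ZT2 (mutant step -0.60 ± 0.15, adjusted p = 0.623) and its wild-type libraries overlapped (0.04 ± 0.19). The transcription factor gene vri had 77.3 and 57.7 CPM in mutant heads and 37.6 and 12 CPM in wild-type heads at ZT2, against 105 and 74.7 CPM in mutant heads and 29.9 and 36.8 CPM in wild-type heads at ZT22, with a step of -0.43 ± 0.33. Its counterpart in the second loop, Pdp1, had 992 and 1146 CPM in mutant heads and 719 and 2902 CPM in wild-type heads at ZT2, against 1101 and 1631 CPM in mutant heads and 1014 and 1019 CPM in wild-type heads at ZT22, and 1 library, wild-type ZT2 replicate 2, held the highest of these values. The activator genes Clk and cyc had steps of -0.04 ± 0.15 and -0.15 ± 0.18.

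The photoreceptor gene cry had 273 and 247 CPM in mutant heads and 256 and 105 CPM in wild-type heads at ZT2, against 165 and 151 CPM in mutant heads and 178 and 197 CPM in wild-type heads at ZT22. In the mutant both ZT2 libraries were above both ZT22 libraries, and in wild type the 2 times overlapped. The mutant step of cry was 0.70 ± 0.13 (edgeR's quasi-likelihood test, adjusted p = 0.21). With the replicate block it was 0.70 ± 0.09 and passed (adjusted p = 0.0495), and over the 12 alternatives for the mutant step its adjusted p was 1.16e-04 to 1. The wild-type step was -0.04 ± 0.35, and the test of the difference gave an adjusted p of 0.879. The gene jet, which encodes an F-box protein that acts with Cryptochrome on TIM, had a step of -0.06 ± 0.15 over both genotypes. The kinase genes dco, sgg, nmo, CkIIalpha and CkIIbeta, the phosphatase genes mts, tws and wdb, the ubiquitin ligase gene slmb and CG31324 (RefSeq name Cipc) had steps between -0.22 (CkIIalpha) and 0.30 (nmo), with adjusted p-values of 0.992 or more.

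**Figure D2:**
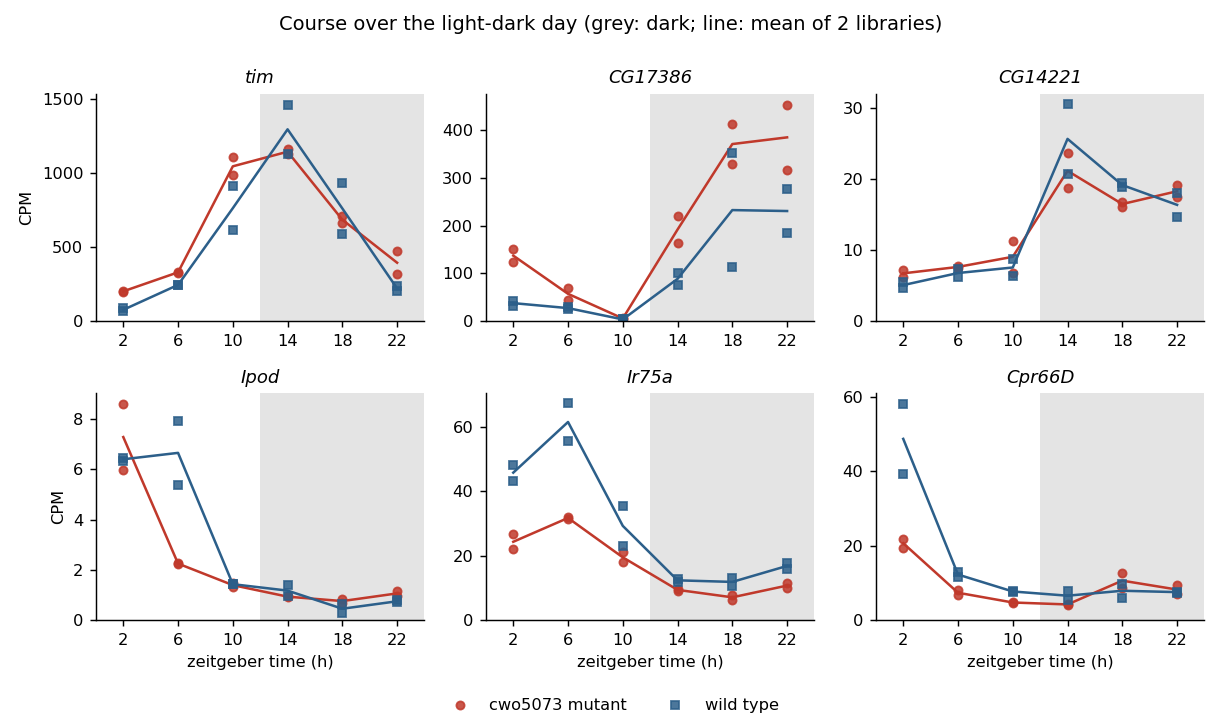
CPM of 6 genes over the 6 times of the day (zeitgeber time in h, grey for the dark), with a point for each library and a line through the means of 2 libraries, circles for the mutant and squares for wild type. Cpr66D was highest at ZT2, Ipod at ZT2 in the mutant and at ZT6 by a small margin in wild type, Ir75a at ZT6, tim and CG14221 after lights off at ZT14, and CG17386 at ZT18 and ZT22.

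Genes known to cycle in fly heads were described from a list of 33, of which 31 were tested and 0 passed over both genotypes or in the mutant step. In the 12-group fit 2 fell, CG17386 and CG11891, against 0.153% of all tested genes that fell. At an unadjusted p under 0.05 over both genotypes there were 7 of 31, against 3.43% of all tested genes. The lists here and below were chosen with earlier results of these data known, so counts of their members are a description. The gene CG17386 (RefSeq name Achl, Achilles, known as a rhythmic neuronal gene that affects immune gene expression) had 151 and 123 CPM in mutant heads and 32.8 and 43 CPM in wild-type heads at ZT2, against 452 and 317 CPM in mutant heads and 184 and 277 CPM in wild-type heads at ZT22. The times did not overlap, and wild type was below the mutant at ZT2. Its step was -2.05 ± 0.30 in the 8 libraries (SE, edgeR's quasi-likelihood test, adjusted p = 0.206) and -2.05 ± 0.29 in the 12-group fit (adjusted p = 0.00233, with 6.71e-08 to 0.736 over the alternatives). It was lowest at ZT10, with 5.39 and 6.23 CPM in the mutant and 3.92 and 3.68 CPM in wild type.

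CG11891 had 17.3 and 19.3 CPM in mutant heads and 8.21 and 6.9 CPM in wild-type heads at ZT2, against 31.3 and 56.3 CPM in mutant heads and 14.7 and 17.3 CPM in wild-type heads at ZT22. Within each genotype the ZT2 libraries were below the ZT22 libraries, with overlap across genotypes. CG11891 fell by 1.17 ± 0.17 in the 12-group fit (edgeR's quasi-likelihood test, adjusted p = 0.00233, with 3.29e-04 to 0.882 over the alternatives). Its model overlaps CG11889 on the same strand. The median step of the 31 tested genes was -0.07 over both genotypes, 0.15 in the mutant and -0.08 in wild type.

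The naming rule gave 6 genes with the smallest p over both genotypes in each direction, with the same sign in both genotypes. None of them but CG14221 passed in the 8 libraries, and all 12 passed in the 12-group fit. That fit holds the same ZT2 and ZT22 libraries by which the genes were chosen, so it is no separate test of them. On the higher side, Ir75a, an ionotropic receptor of the antenna, had 22 and 26.7 CPM in mutant heads and 43.3 and 48.3 CPM in wild-type heads at ZT2, against 11.7 and 9.91 CPM in mutant heads and 15.9 and 17.9 CPM in wild-type heads at ZT22. It rose by 1.31 ± 0.14 in the 12-group fit (edgeR's quasi-likelihood test, adjusted p = 5.96e-04, with 4.31e-10 to 0.749 over the alternatives), and its step in the 8 libraries was 1.30 ± 0.15 (adjusted p = 0.0906). The groups of times did not overlap, and at each time wild type was above the mutant. Cpr66D, which encodes a cuticle protein, had 19.5 and 21.9 CPM in mutant heads and 39.2 and 58.2 CPM in wild-type heads at ZT2, against 7.11 and 9.44 CPM in mutant heads and 7.73 and 7.45 CPM in wild-type heads at ZT22. Its 8-library step was 1.99 ± 0.32 (adjusted p = 0.219), and it rose by 2.00 ± 0.19 in the 12-group fit (adjusted p = 8.68e-05, with 5.15e-06 to 0.882 over the alternatives). Its mutant step was 1.31 ± 0.22 and its wild-type step 2.70 ± 0.30, and the difference did not pass (adjusted p = 0.879). At ZT6 it was back at 8.03 and 6.81 CPM in the mutant and 11.8 and 12.9 CPM in wild type.

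The gene jv (javelin), which acts in the actin bundles of bristles, had 27.4 and 26.9 CPM in mutant heads and 29.7 and 24.5 CPM in wild-type heads at ZT2, against 16.4 and 15 CPM in mutant heads and 13.5 and 12.4 CPM in wild-type heads at ZT22. It rose by 0.93 ± 0.11 in the 12-group fit (edgeR's quasi-likelihood test, adjusted p = 8.44e-04, with 9.79e-06 to 0.882 over the alternatives). The bHLH factor gene tx (taxi) had 17 and 16.3 CPM in mutant heads and 19.2 and 19.1 CPM in wild-type heads at ZT2, against 10.8 and 10.4 CPM in mutant heads and 9.3 and 10.9 CPM in wild-type heads at ZT22, and rose by 0.79 ± 0.10 (adjusted p = 8.44e-04, with 1.28e-04 to 0.996 over the alternatives). The other two genes of this side, CG9444 and CG14132, rose by 0.82 ± 0.13 and 0.95 ± 0.17 in the same fit (adjusted p = 0.00972 and 0.0158). All 6 genes had all 4 ZT2 libraries above all 4 ZT22 libraries, as had 151 of the 11095 tested genes (1.36%). The models of jv, CG9444, CG8419, rgr, CG1632, Hr38, per, vri, cry, jet, trpl, ninaB, ACC and Tsp2A overlap genes on the opposite strand, those of Clk, sgg and CG31324 overlap genes on the same strand, and whether the counting used strand is not stated.

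On the lower side beside CG14221, CG17386 and tim, CG8419 had 21 and 26.8 CPM in mutant heads and 15.9 and 18.3 CPM in wild-type heads at ZT2, against 53.1 and 43.5 CPM in mutant heads and 40.8 and 51.6 CPM in wild-type heads at ZT22. It fell by 1.22 ± 0.16 in the 12-group fit (edgeR's quasi-likelihood test, adjusted p = 0.00129, with 2.93e-06 to 0.757 over the alternatives). CG4666 had 6.14 and 5.48 CPM in mutant heads and 6.2 and 4.75 CPM in wild-type heads at ZT2, against 12.7 and 12.9 CPM in mutant heads and 14.3 and 13 CPM in wild-type heads at ZT22, and fell by 1.22 ± 0.20 (adjusted p = 0.00786, with 6.07e-08 to 0.854 over the alternatives). The gene rgr had 28.5 and 31 CPM in mutant heads and 15.8 and 12 CPM in wild-type heads at ZT2, against 53.2 and 46.9 CPM in mutant heads and 33.5 and 40.6 CPM in wild-type heads at ZT22, and fell by 1.08 ± 0.14 (adjusted p = 0.00144, with 1.89e-04 to 0.882 over the alternatives). Of these 6 lower genes, all but tim had 4 ZT2 libraries below 4 ZT22 libraries, as had 107 of all tested genes (0.964%).

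The 59 calls of the 12-group fit moved in the same direction in both genotypes, and 48 of them separated the 4 ZT2 from the 4 ZT22 libraries, as did 2.33% of all tested genes. Over its 42 higher genes the median step was 1.32 in the mutant and 1.73 in wild type, and over its 17 lower genes it was -1.03 and -1.12. The difference between times was at least 2-fold for 41, and 28 had an average log2 CPM under 3. Of the 42 higher genes, 26 had their highest mean over the 6 times at ZT2, 13 at ZT6, 2 at ZT10 and 1 at ZT14. The lowest mean was at ZT22 for 25, at ZT18 for 12 and at ZT14 for 5. Of the 17 lower genes, 8 were highest at ZT22, 3 at ZT18 and 6 at ZT14, and 8 were lowest at ZT2, 3 at ZT6 and 6 at ZT10. Since the calls were chosen by the ZT2 and ZT22 values, these counts, like those of shared direction and of separated libraries, are a description. The count of 59 was 20 without mutant ZT2 replicate 2, 27 without mutant ZT22 replicate 2, 31 without wild-type ZT22 replicate 1, 35 without wild-type ZT22 replicate 2, 38 without mutant ZT22 replicate 1, 41 without mutant ZT2 replicate 1 and 79 without wild-type ZT2 replicate 2. Without wild-type ZT2 replicate 1 it was 2508, and without both libraries of low long-gene coverage 42.

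Further genes of the 12-group fit, with an average log2 CPM of 3 or more, were named after their values were seen. CG1632 had 39.6 and 44.9 CPM in mutant heads and 31.4 and 15.5 CPM in wild-type heads at ZT2, against 89.6 and 85.8 CPM in mutant heads and 69.7 and 81.6 CPM in wild-type heads at ZT22, without overlap between times, and fell by 1.37 ± 0.16 (edgeR's quasi-likelihood test, 12-group fit, adjusted p = 8.44e-04, with 8.71e-07 to 0.882 over the alternatives). CG34134 had 52.4 and 59.1 CPM in mutant heads and 78.2 and 176 CPM in wild-type heads at ZT2, against 144 and 194 CPM in mutant heads and 302 and 255 CPM in wild-type heads at ZT22. Wild-type ZT2 replicate 2 overlapped the mutant ZT22 libraries, and CG34134 fell by 1.37 ± 0.27 (adjusted p = 0.0293, with 0.00128 to 0.999 over the alternatives). Xrp1, a bZIP factor of the stress response, had 559.7 and 494 CPM in mutant heads and 539 and 842 CPM in wild-type heads at ZT2, against 413 and 340.5 CPM in mutant heads and 321 and 285 CPM in wild-type heads at ZT22. Every ZT2 library of Xrp1 was above every ZT22 library, and it rose by 0.84 ± 0.15 (adjusted p = 0.0181, with 1.82e-04 to 1 over the alternatives). CG8147 (RefSeq name phu) was far higher in the mutant: it had 1169 and 705 CPM in mutant heads and 50.2 and 64.2 CPM in wild-type heads at ZT2, against 674 and 645 CPM in mutant heads and 9.24 and 6.82 CPM in wild-type heads at ZT22. It rose by 1.67 ± 0.32 (adjusted p = 0.0293, with 0.00328 to 1 over the alternatives), with a mutant step of 0.48 ± 0.25, a wild-type step of 2.85 ± 0.57 and a difference that did not pass (adjusted p = 0.879).

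**Figure D3:**
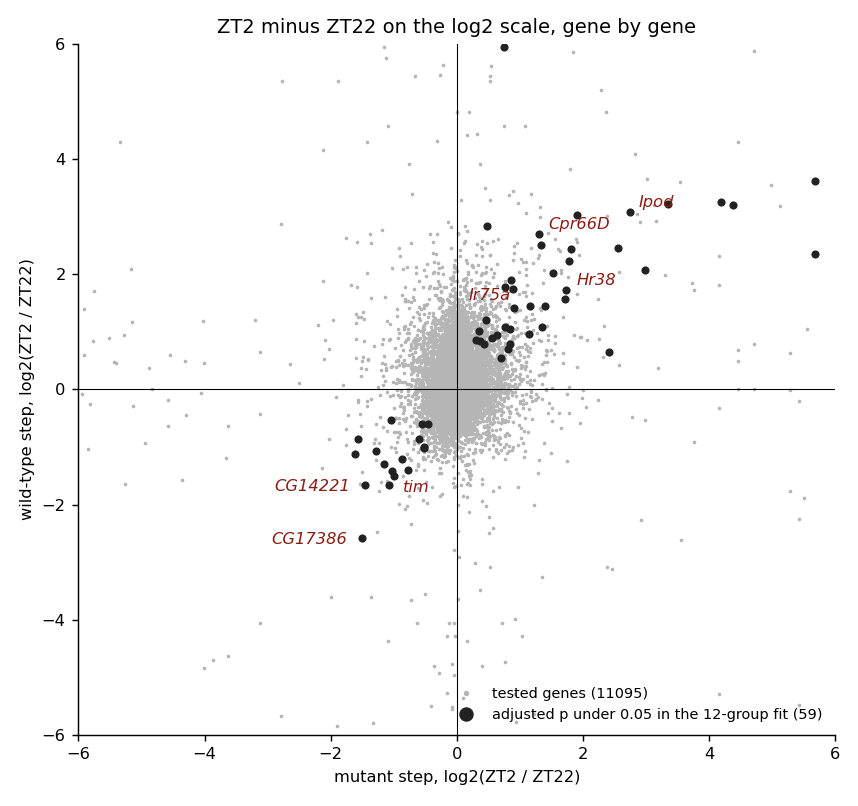
The step of each of 11095 genes in the mutant (x axis) and in wild type (y axis), both as log2(ZT2 / ZT22), with the 59 calls of the 12-group fit in black and 63 genes beyond the axes. The black points, which were chosen by these same values, lie in the quadrants where both genotypes moved the same way. The grey cloud is wider along the wild-type axis.

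Across all tested genes the mutant step and the wild-type step, which share no library, were weakly related. Their Spearman correlation was 0.109 over 11095 genes, which are not independent replicates, and 5985 genes (53.9%) had the same sign. The median size of the step was 0.15 on the log2 scale in the mutant and 0.31 in wild type. Transcript length moved with the mutant step (Spearman 0.234 across genes) and less with the wild-type step (-0.06). Among genes with a mean CPM of at least 8, the median mutant step was -0.15 under 1000 nt and 0.06 at 4000 nt or more. The median wild-type step was 0.21 and 0.14 in these classes, and -0.08 in both classes between them. With length trends removed by offsets, Ipod (2.96 ± 0.23, adjusted p = 0.0153) and CG14221 (-1.50 ± 0.12, adjusted p = 0.0153) passed over both genotypes in edgeR's quasi-likelihood test, and Hsp22 missed the threshold in the mutant step (-1.21 ± 0.17, adjusted p = 0.0524). The range over the alternatives is given with each gene above. With these offsets the 8-library test called 3 genes, the mutant step 12 (7 higher and 5 lower) and the 12-group fit 95.

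**Figure D4:**
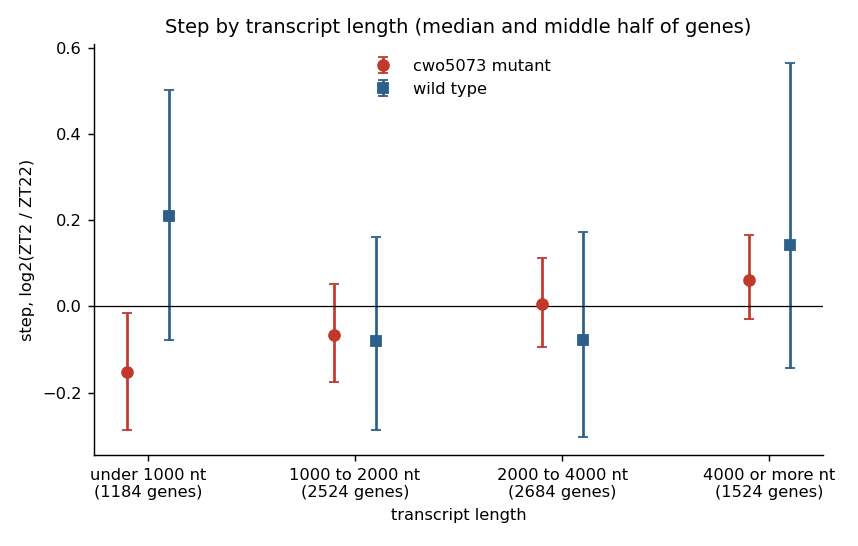
The step as log2(ZT2 / ZT22) by class of transcript length, for 7916 genes with a mean CPM of at least 8, with circles for the mutant, squares for wild type and bars from the lower to the upper quartile. The mutant medians go up with length from -0.15 to 0.06, and the wild-type medians are above 0 in the shortest and the longest class.

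With the replicate block the 10 calls of the mutant step were Ipod, Hsp22, CG34134, CG1632, CG17386, cry, cyr, MESR3, Cad74A (a cadherin) and RabX5 (a Rab GTPase), all named because they were called. The 12 calls with length offsets were Ipod, CG34134, cyr, MESR3, CG17386, RabX5, Cpr66D, Ir75a, tim, CG14186, CG17211 and CG9743, with neither Hsp22 nor cry.

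Genes known to respond to neuronal activity were described from a list of 16, all tested. None passed over both genotypes or in the mutant step (edgeR's quasi-likelihood test; 4 of 16 at an unadjusted p under 0.05 over both genotypes, against 3.43% of all tested genes), and 14 of 16 had a positive step in the combined fit, against 5570 of 11095 of all genes. As this list too was chosen with earlier results of these data known, these counts are a description. The median step was 0.21 over both genotypes, 0.28 in the mutant and 0.32 in wild type. Hr38, a nuclear receptor of the NR4A class, had 51.5 and 51.6 CPM in mutant heads and 17.2 and 24.4 CPM in wild-type heads at ZT2, against 23.1 and 7.42 CPM in mutant heads and 5.18 and 7.56 CPM in wild-type heads at ZT22. It rose by 1.73 ± 0.35 in the 12-group fit (adjusted p = 0.0359, with 0.00125 to 0.999 over the alternatives), and missed the threshold in the 8 libraries (adjusted p = 0.298). It was the 1 call among the 16 genes in the 12-group fit, against 0.532% of all tested genes. Within each genotype ZT2 was above ZT22, and mutant ZT22 replicate 1 overlapped the wild-type ZT2 libraries. The Egr-type factor gene sr (stripe) had 51.6 and 49.6 CPM in mutant heads and 26.9 and 35.7 CPM in wild-type heads at ZT2, against 21.7 and 4.05 CPM in mutant heads and 17.4 and 16.3 CPM in wild-type heads at ZT22, without overlap of times. The step of sr was 1.43 ± 0.48 and did not pass (adjusted p = 0.992 in the 8 libraries and 0.397 in the 12-group fit). With length offsets CG14186, also on this list, passed in the mutant step (0.98 ± 0.12, edgeR's quasi-likelihood test, adjusted p = 0.0313). Over the alternatives for that step its adjusted p was 0.00103 to 0.974.

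Of the genes of the eye, 13 for opsins and chromophore and 22 for phototransduction were tested. Of these, 0 passed over both genotypes, in the mutant step or in the 12-group fit (edgeR's quasi-likelihood test). Each list had 1 gene at an unadjusted p under 0.05 over both genotypes, against 3.43% of all tested genes. The median steps were 0.10 and 0.05 over both genotypes. The light-activated channel gene trpl had 4618 and 4369 CPM in mutant heads and 2864 and 2574 CPM in wild-type heads at ZT2, against 3947 and 2734 CPM in mutant heads and 1519 and 1551 CPM in wild-type heads at ZT22. Within each genotype the ZT2 libraries were above the ZT22 libraries, and its step was 0.62 ± 0.21 (adjusted p = 0.992). The carotenoid oxygenase gene ninaB, needed for chromophore, had 89.1 and 96 CPM in mutant heads and 84.7 and 119 CPM in wild-type heads at ZT2, against 61 and 64.7 CPM in mutant heads and 83.1 and 72.5 CPM in wild-type heads at ZT22. All 4 ZT2 libraries of ninaB were above the ZT22 libraries, by a small margin, and its step was 0.46 ± 0.16 (adjusted p = 0.992).

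Among the 24 heat shock and chaperone genes the median step was 0.02 in the combined fit and in the mutant, and -0.04 in wild type. Hsp70Aa had 0 counts in the 8 libraries, and without it the median in the combined fit was 0.03. The co-chaperone gene stv had 172 and 184 CPM in mutant heads and 154 and 174 CPM in wild-type heads at ZT2, against 148 and 119.8 CPM in mutant heads and 93.2 and 104 CPM in wild-type heads at ZT22, with no overlap of times, and its step of 0.56 ± 0.16 did not pass (adjusted p = 0.982 in the 8 libraries and 0.0528 in the 12-group fit). Of the 27 antimicrobial peptide genes 24 were tested and 0 passed over both genotypes, in either genotype or in the 12-group fit (edgeR's quasi-likelihood test; 0 at an unadjusted p under 0.05 over both genotypes). The median of the fitted steps was 0.50, with 21 of 24 above 0, against 5570 of 11095 of all genes. Of the 8 libraries, CecA2 had counts in 1 alone, mutant ZT2 replicate 1. With CecA2 at its bound (a floor of 3 counts over the 4 ZT22 libraries) the median was again 0.50. Replicates lay far apart: the peptide gene Mtk had 98.6 and 3.1 CPM in mutant heads and 2.86 and 14.1 CPM in wild-type heads at ZT2, against 16.6 and 38.9 CPM in mutant heads and 2.62 and 2.5 CPM in wild-type heads at ZT22. The 4 tested Turandot genes, secreted stress peptides, had a median step of -1.19 with 4 of 4 negative, and 0 passed. TotC had 31.5 and 18.7 CPM in mutant heads and 14 and 12.9 CPM in wild-type heads at ZT2, against 24.1 and 52 CPM in mutant heads and 72.5 and 15.6 CPM in wild-type heads at ZT22. TotM had 19.7 and 6.86 CPM in mutant heads and 7.66 and 1.24 CPM in wild-type heads at ZT2, against 18.8 and 19 CPM in mutant heads and 23.9 and 11.1 CPM in wild-type heads at ZT22. The highest value of each came from wild-type ZT22 replicate 1, a library that stands apart, and in mutant replicate 1 both were higher at ZT2 than at ZT22. Their part in the median was not tested. The summed level of the listed genes was 17.3 to 92.5 CPM at ZT2, against 60.6 to 203 CPM at ZT22.

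Of the 26 tested genes of lipid metabolism 0 passed in these tests, and the median step was 0.12. ACC, the acetyl-CoA carboxylase of fatty acid synthesis, had 703 and 439 CPM in mutant heads and 310.0 and 237 CPM in wild-type heads at ZT2, against 422 and 275 CPM in mutant heads and 191 and 166 CPM in wild-type heads at ZT22. Within each genotype ZT2 was above ZT22, and its step of 0.65 ± 0.23 did not pass (adjusted p = 0.992). Summed levels of fat body and yolk marker genes were 8720 to 62700 CPM at ZT2, against 7060 to 45200 CPM at ZT22, and their part in these steps was not tested.

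Genes for ribosomal proteins and the respiratory chain, which have short transcripts, had lower median steps in the mutant than in wild type. Of 87 tested genes for cytosolic ribosomal proteins, 42 had a positive step in the mutant and 82 in wild type, with medians of -0.01 and 0.57, against 5290 and 5715 of 11095 tested genes with a positive step. Their summed level was 63300 to 71400 CPM in mutant heads and 78400 to 142000 CPM in wild-type heads at ZT2, against 58100 to 81000 CPM in mutant heads and 66100 to 111000 CPM in wild-type heads at ZT22. The times overlapped in each genotype, and the wild-type replicates, of which 1 at each time is a library that stands apart, lay far from each other. Of 73 genes for mitochondrial ribosomal proteins, 2 had a positive step in the mutant and 49 in wild type, with medians of -0.33 and 0.17. In mutant heads their summed level was 1390 to 1660 CPM at ZT2, against 1520 to 2340 CPM at ZT22. In wild-type heads it was 2140 to 3210 CPM, against 2620 to 2870 CPM. Of 71 genes of oxidative phosphorylation, 13 and 59 had a positive step, with medians of -0.12 and 0.34. In mutant heads their summed level was 16100 to 19400 CPM at ZT2, against 15800 to 23100 CPM at ZT22. In wild-type heads it was 23500 to 33400 CPM, against 27900 to 29900 CPM. For these lists too the summed levels of the times overlapped in each genotype. No gene of these 3 lists passed in any of the 4 tests or in the 12-group fit, and the median transcript lengths were 650, 739 and 694 nt, against 1831 nt over all tested genes. The shift of short transcripts given above had the same directions, and its part in these medians was not tested.

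Of 47 tested genes listed as cuticle proteins by their names, Cpr66D alone passed in the 12-group fit, which called 0.532% of all tested genes. The list also took in Cpr, a cytochrome P450 reductase gene, and its median step was 0.23. Of 19 tested glial genes 1, the tetraspanin gene Tsp2A, rose in the 12-group fit, by 1.32 ± 0.28 (edgeR's quasi-likelihood test, adjusted p = 0.0454, with 0.0117 to 1 over the alternatives). It had 1.49 and 1.61 CPM in mutant heads and 1.7 and 1.36 CPM in wild-type heads at ZT2, against 0.924 and 0.727 CPM in mutant heads and 0.524 and 0.398 CPM in wild-type heads at ZT22, levels that are low, without overlap between times. Tsp2A does not stand for its list: the median step of the 19 glial genes was -0.08 over both genotypes. Of the 19, 7 had a positive step, against 5570 of 11095 tested genes. The 34 tested genes of synapse and excitability, 23 of muscle and 13 of haemocytes had 0 calls in the 4 tests and the 12-group fit, with median steps over both genotypes of 0.22, 0.01 and -0.08.

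**Figure D5:**
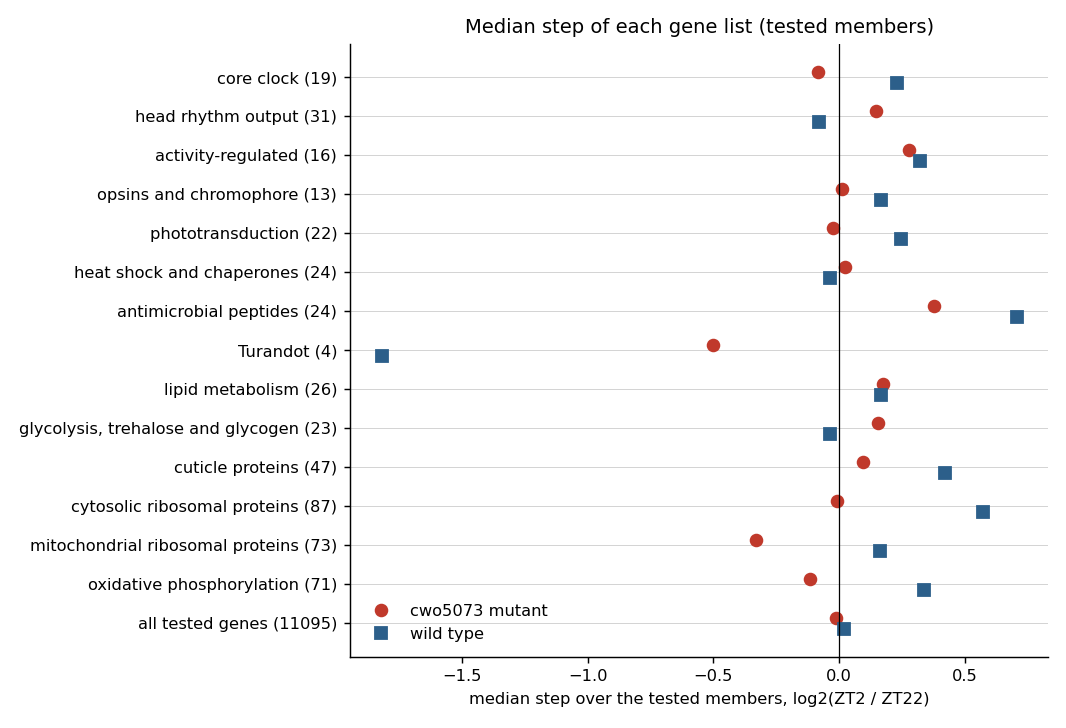
Median fitted step of each of 15 gene lists, as log2(ZT2 / ZT22), in the mutant (circles) and in wild type (squares). The medians of the ribosomal and respiratory lists are near or below 0 in the mutant and above 0 in wild type, and the Turandot list is below 0 in both.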

How the data were processed

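Messenger RNA of fly heads was sequenced in 24 libraries of 2 genotypes and 6 times, 2 libraries for each group. The deposited gene table holds expected counts, which the authors' file gives without naming the counter. Tested on the files, each count equals the sum over a gene's transcripts of coverage times length divided by the read length, with each transcript rounded up before summing, in all 16722 comparable genes in each of 8 libraries. Coverage (signal) and FPKM per transcript and FPKM per gene, for 8489 genes, are also deposited by the authors. Per the submitters' processing notes, STAR 2.6.1d, StringTie and DESeq2 were used with the build dm6, without roles. The expected counts were rounded to whole numbers, and 5 rows with date-like names, 0.0224% of counts, were left out.

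Of 16727 genes, filterByExpr with the 12 groups kept 11095, which were scaled by TMM and tested with edgeR 4.0.16 in R 4.3.3, with Benjamini-Hochberg adjustment at 0.05. The step over both genotypes used the 8 libraries with genotype as a block. The steps of each genotype used the 12 libraries of that genotype and 6 times, and their difference all 24. Every difference is ZT2 minus ZT22 as log2. CPM of single genes are counts divided by these scaled library totals, in the usual CPM unit. Summed levels of gene lists and of rows named for ribosomal RNA were divided by the unscaled totals instead. Alternatives were DESeq2 1.42.0, limma 3.58.1 with quality weights, another scaling, no filter, length offsets, FPKM with a pseudocount of 1 or 0.1, a replicate block, and leaving out libraries. For the step over both genotypes they also included the 12-group fit and variants of it chosen after the values were seen. Scripts were tested on simulated data, with 2-fold and 4-fold changes set in genes with a mean CPM of at least 8. Changes of 2-fold were recovered for 55% of such genes over both genotypes and 7% in the difference of steps. The shares were 20% in the mutant step and 24% in the wild-type step. For 4-fold changes they were 98%, 73%, 83% and 93% in the same order. Smaller changes could thus be missed by these tests. Figures used Python 3.11.15.

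Named genes were the 19 clock genes, then, since fewer than 6 genes passed in each direction, the 6 with the smallest p in each direction with an average log2 CPM of 3 or more and the same sign in both genotypes, and calls of the mutant step. Other genes were named after their values were seen. The members and lists were chosen with earlier results of these data known. Same-numbered mutant libraries deviated together (correlations of 0.143 to 0.669, 15 of 15 pairs over 0.1), so the numbers pair them as read from the data. The lowest correlation, 0.143, was that of ZT2 with ZT22, the times compared here. RefSeq names matched 16503 genes. Depth was 11674473 to 18805525 counts, and intervals of counting error alone were not used, since replicates differed by far more than counting noise.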

Additional observations from a re-analysis of the deposited data

Results flagged for a closer look

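Both genes below were picked out because the libraries of one genotype moved opposite to those of the other, and the test of the difference did not pass. The kinase gene dco had 147 and 142 CPM in mutant heads and 141 and 276 CPM in wild-type heads at ZT2, against 151 and 148 CPM in mutant heads and 135 and 131 CPM in wild-type heads at ZT22. The mutant step minus the wild-type step was -0.69 on the log2 scale (edgeR's quasi-likelihood test, adjusted p = 0.879). CkIIbeta, a regulatory subunit of casein kinase 2, had 131 and 134 CPM in mutant heads and 144 and 246 CPM in wild-type heads at ZT2, against 144 and 149 CPM in mutant heads and 116 and 139.9 CPM in wild-type heads at ZT22. Its mutant step minus its wild-type step was -0.75 (adjusted p = 0.879). In both, the highest value came from wild-type ZT2 replicate 2, the library of lowest long-gene coverage, and its part in the difference was not tested.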

How the results depend on the processing

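Over both genotypes, against 2 calls, other size factors gave 2, length offsets 3, DESeq2 55 (40 higher, 15 lower), the 12-group fit 59 (42 and 17), limma's voom with quality weights 24 (13 and 11), and no filter 1. The replicate block, both FPKM settings and leaving out both wild-type libraries of low long-gene coverage gave 0, and leaving out single libraries 0 to 1. Fits chosen after seeing the data gave 42 (12 groups without those 2 libraries), 95 (12 groups with length offsets) and 20 to 2508 (12 groups without single libraries). For the mutant step, against 2 calls, DESeq2 gave 43, no filter 1, length offsets 12, the 12-group fit 4, the replicate block 10 and single libraries left out 0 to 5, with 5 without mutant ZT22 replicate 1 and 0 without mutant ZT2 replicate 1 or 2. For the wild-type step, against 0, DESeq2 gave 57, no filter 3, length offsets 2, the 12-group fit 23, FPKM with a pseudocount of 1 gave 5 and of 0.1 gave 3, leaving out both libraries of low long-gene coverage 5, and single libraries 1 to 3487. For the difference, against 0, DESeq2 gave 3, leaving out both libraries 2, and single libraries 0 to 2614, with 2614 without wild-type ZT2 replicate 1. The cause was not tested. Wild-type libraries share only a replicate number (correlations of -0.41 to 0.271, 6 of 15 pairs over 0.1), and the replicate block left the wild-type step and the difference at 0 calls. For 41 genes (the clock genes, those of the naming rule, Ipod and a set from the 12-group fit), 29 kept their sign in the 28 alternatives for the step over both genotypes, and 12 changed it somewhere without being called there. What depth limits was not tested.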

Other observations

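Rows named for ribosomal RNA, which poly(A) selection should leave out, held 4811 and 163.5 CPM in mutant heads and 8407 and 4951 in wild-type heads at ZT2, against 319.7 and 397.3 in mutant heads and 1385 and 381.6 in wild-type heads at ZT22. The groups overlapped, and the part of these rows in the steps was not tested. CG9170 (RefSeq name Cep164), chosen after its values were seen, had 205 and 235 CPM in mutant heads and 174 and 103 CPM in wild-type heads at ZT2, against 42.3 and 152 CPM in mutant heads and 23.1 and 27.7 CPM in wild-type heads at ZT22. At other times its replicates also lay far apart, with 211 and 34.7 CPM in the mutant at ZT10, 33.7 and 226 CPM in wild type at ZT14 and 36 and 219.6 CPM in wild type at ZT18.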
